A study of Mus musculus with 16 samples.

Results

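The 44 genes described here carry out autophagy or are lysosomal genes linked to it. With earlier results of these data known, they were listed by function from the 21951 protein-coding genes of the annotation. They comprise 5 genes of the ULK initiation complex, 6 of the class III PI3-kinase complex, 5 of membrane supply, 10 of the conjugation machinery, 5 of the Atg8 family, 5 cargo receptors, 3 MiT-TFE transcription factors and 5 lysosomal proteins. Their promoters were read in ATAC-seq data, in which the Tn5 transposase cuts open chromatin, from 8 tissues of male C57BL/6 mice: Brown Adipose, Heart, Kidney, Liver, Lung, Muscle, Spleen and White Adipose. The mice were obtained at 12 weeks of age and were either Fed, with free access to food, or Fasting, deprived of food for 24 h. Tissue of 3 mice was pooled for each library, and 1 library was made per tissue and state, 16 in all, so there were no replicates of a tissue in a state. Every tissue of a state came from the same animals, so p-values below speak of these pools and not of a population of mice. Because each library mixes all cells of a tissue, fewer cells of a type and less accessibility per cell cannot be told apart.

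Autophagy is the process in which a double membrane closes around cytoplasm and delivers it to the lysosome for degradation. The ULK kinase complex starts it, the PI3-kinase complex marks the membrane with phosphatidylinositol 3-phosphate, ubiquitin-like conjugation attaches Atg8 proteins (the LC3 and GABARAP families) to the membrane, and receptors bring in cargo. Fasting activates autophagy in many tissues, largely through dephosphorylation and phosphorylation of existing proteins, and the MiT-TFE factors bind E-box letters in the promoters of many of these genes.

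The value of a gene in a library is the percentile of its strongest promoter peak. A promoter peak has its summit within 3000 bp of any annotated start of the gene, and strength is the p-value of the deposited peak. The percentile is its rank among the roughly equal numbers of summit rows in each library (298996 to 299529), with 100 for the strongest and 0 for a gene with none. A region can hold several rows, and distinct regions numbered from 149835 in Fed Brown Adipose to 239804 in Fed Liver. A promoter was called open where the peak had a q-value under 0.01, the limit used by the study. Sequencing depth is not given in the files. The tags expected by chance at a summit, which grow with depth, ran from 2.80 in Fed Liver to 12.77 in Fed Brown Adipose, and in 8 libraries every deposited row had q under 0.01. Marker genes matched the labels, with all 5 markers of each tissue listed in both of its libraries and the highest mean percentile in the labelled tissue for 7 of 8 lists. The White Adipose list averaged 88.8 in White Adipose and 93.1 in Brown Adipose. A list of 6 macrophage markers averaged 65.1 in Spleen, where 5 were listed in both libraries, 55.3 in White Adipose, where all 6 were, and 22.8 to 43.5 in the other tissues.

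Promoters of all 44 genes were open in every one of the 16 libraries, whereas 59.8% of all protein-coding genes were. The weakest was Lamp1, a glycoprotein of the lysosomal membrane, in Fed Liver, with a percentile of 76.5 and a −log10 q of 9.15. Of the 704 values (44 genes in 16 libraries), 660 were at a percentile of 90 or above, which is 93.75%, against 77.1% over the 13479 genes listed in all 16 libraries. The median of the genes' mean percentiles was 97.3, against 95.7 for those 13479 genes. Autophagy and lysosome genes thus sat near the top of each list, and comparisons below are also given against the 10371 other protein-coding genes whose mean percentile was at or above that of the lowest of the 44 genes, 88.7, called other genes of like level.

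**Figure D1:**
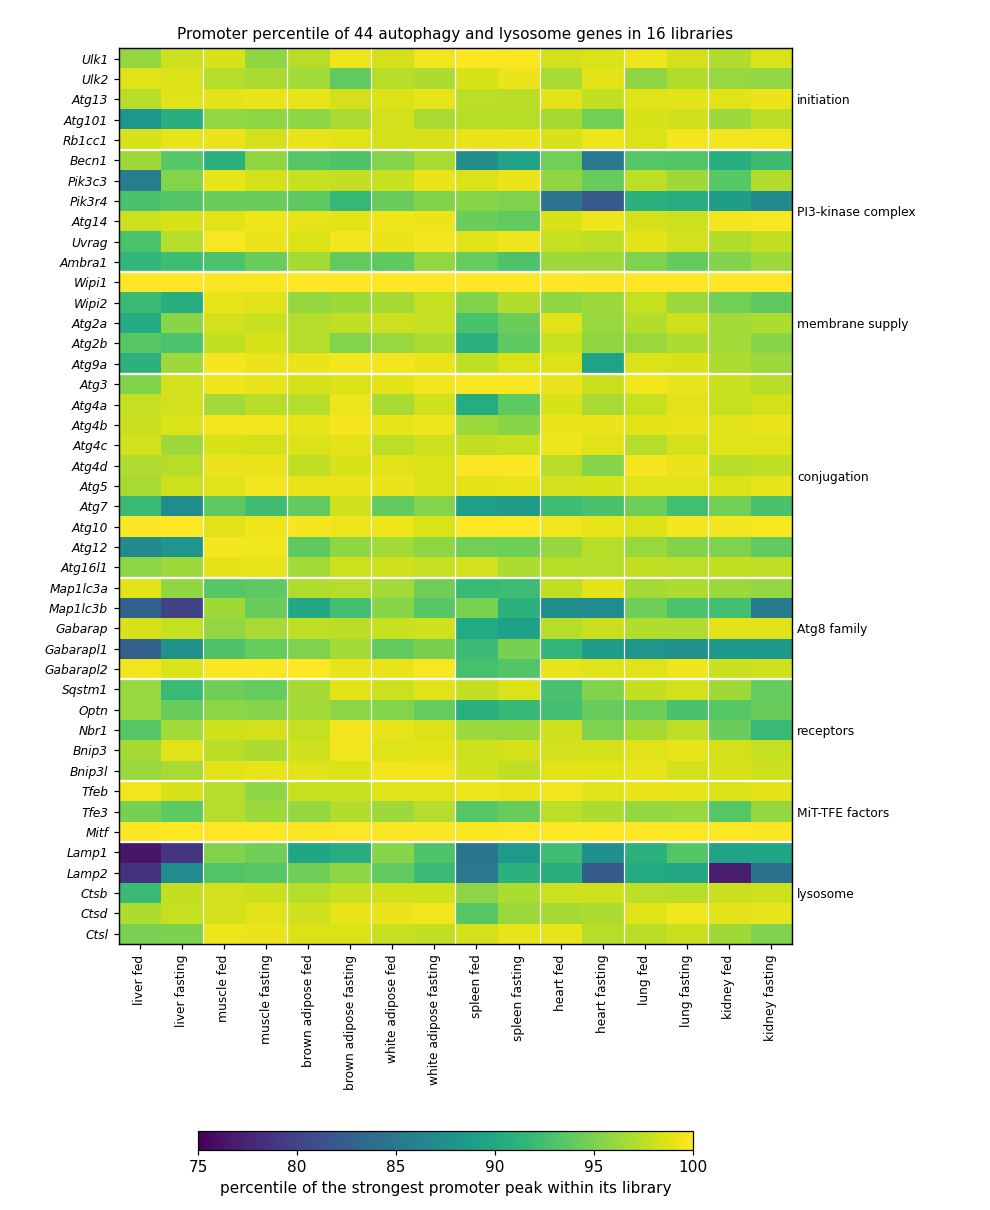
Percentile of the strongest promoter peak (colour scale from dark, low, to yellow, 100) of the 44 genes (rows, grouped by role) in the 16 libraries (columns, Fed and Fasting side by side for each tissue). Every cell holds a peak, the darkest cells are those of Lamp1 in Liver and Lamp2 in Fed Kidney and Fed Liver, and the rows of Wipi1 and Mitf stay near 100 throughout.

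The peaks lay at the annotated starts. For 40 of the 44 genes the median summit over libraries was within 200 bp of a start, and for 10 genes the strongest summit moved by more than 1000 bp between libraries. For 9 genes (Atg13, Atg2b, Atg9a, Atg3, Atg4a, Atg4b, Atg12, Sqstm1 and Nbr1) another protein-coding gene starts within 1000 bp of the strongest summit, so their values cannot be told apart from those of the neighbour.

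The sequences shown next hold E-box letters CACGTG at the promoters of 6 of the genes, because MiT-TFE factors bind such letters. They cover every CLEAR core found near a summit and, as examples of an E-box alone, the promoters of a conjugation gene and a receptor. They were read from the GRCm38 genome on the gene's own strand, 5′ to 3′, and capitals mark the E-box CACGTG or, where the flanking letters also match, the CLEAR core TCACGTGA, which contains it. The Lamp1 promoter window holds 4 E-boxes within the bases from 61 to 10 before the start, and a CLEAR core lies downstream of the start, 41 bp from the strongest summit.
Lamp1, upstream, chr8:13159088-13159160, plus strand: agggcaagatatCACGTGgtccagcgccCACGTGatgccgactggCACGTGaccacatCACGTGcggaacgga
Lamp1, downstream, chr8:13159209-13159238, plus strand: agaccctcggcTCACGTGAccggcgggcgc
Ctsd, chr7:142387908-142387937, minus strand: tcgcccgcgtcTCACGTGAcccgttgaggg
Ctsb, chr14:63122430-63122459, plus strand: gcggtcaagcaTCACGTGAcgaatcagccc
Atg3, chr16:45158723-45158775, plus strand: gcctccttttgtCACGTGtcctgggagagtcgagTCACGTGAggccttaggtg
Atg5, chr10:44268313-44268342, plus strand: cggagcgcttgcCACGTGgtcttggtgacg
Bnip3, chr7:138909597-138909626, minus strand: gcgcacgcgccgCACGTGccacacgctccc
The CLEAR core of Ctsd was within 200 bp of the strongest summit in all 16 libraries, at a median distance of 63 bp, and that of Ctsb, just before its start, at a median of 58 bp.

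RefSeq promoters (250 bases before to 50 bases after a start, GRCm38.p6) were matched for 36 of the 44 genes, all but Rb1cc1, Becn1, Pik3c3, Atg12, Atg16l1, Map1lc3a, Bnip3l and Ctsb. An E-box (CACGTG, which reads the same on both strands) was present in 8 of the 36, which is 22.2%, against 9.18% of all 16522 matched promoters and 12.2% of those of like level. The 8 genes were Atg14, Atg3, Atg5, Atg7, Bnip3, Lamp1, Ctsd and Ctsl, and for Atg7 the RefSeq window lay at least 24456 bp from any of its strongest summits. The E-box of Ctsl lay at least 287 bp from its strongest summits, at a median of 322 bp. The CLEAR core was present in 2 of 36 (Atg3 and Ctsd), 5.56%, against 1.45% of all promoters and 2.21% of those of like level. Around the strongest summit of each gene, in windows reaching 100 bp to each side, an E-box was present for 6 of the 44 genes (13.6%, against 5.48% of 19719 genes and 6.70% at like level). The CLEAR core was present for 4 of them, Atg3, Lamp1, Ctsb and Ctsd (9.09%, against 0.852% and 1.22%). The letters TGTTTAC, bound by FOXO factors, were searched on both strands and were in none of the 36 promoters, against 3.49% of all promoters, and at the summit of Becn1 alone. These are counts of letters in fixed windows and not of binding. The promoters were GC-rich, with a median GC content of 61.7%, against 57.7% over all promoters and 62.7% at like level. A CpG observed-to-expected ratio of at least 0.6 was found in 29 of 36, against 52.5% of all promoters. The median ratio was 0.80, against 0.63 over all promoters and 0.82 at like level.

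Whether a promoter differed between tissues was tested by asking whether the Fed and Fasting values of a gene were closer when paired by tissue than in the 40320 possible pairings (exact permutation test, one-sided, Benjamini-Hochberg adjustment over 18883 genes listed in at least 2 libraries). The test gives 1 p per gene for the pattern as a whole, and the order of the tissues given beside it below is a description. A tissue pattern was called for 21 of the 44 genes at an adjusted p under 0.05. That is 47.7%, close to the 51.2% of all 18883 genes and the 51.2% of other genes of like level, so a tissue pattern was about as common among autophagy and lysosome genes as elsewhere. The range between the highest and lowest tissue mean had a median of 4.48 percentile points over the 44 genes, against 4.54 at like level. With tags scaled to the depth of the shallowest library 22 genes were called.

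With 1 tissue left out at a time, and so fewer pairings, the count fell to 11 without Muscle and 13 without Spleen (32.2% of all genes in each), and was 20 without Heart (43.5%). Pik3r4, Gabarapl1, Gabarap, Atg4b, Atg4d and Bnip3l passed in all of these fits. Lamp1 and Atg12 missed the threshold without Liver or Muscle (adjusted p from 0.0562 to 0.0840, exact pairing permutation test), Map1lc3a and Wipi1 without Muscle or Spleen, Tfeb without Muscle or Brown Adipose, Atg14 without Spleen or Kidney, Ctsl without Liver or Kidney, and Ctsd without Spleen. Wipi2 missed it without Liver, Muscle or Kidney, Atg101 and Gabarapl2 without 4 of the tissues each, Map1lc3b and Uvrag without 5, and Atg2a and Ctsb without 6. Lamp2 gained a call without Heart (adjusted p = 0.0212, exact pairing permutation test), as did Atg9a and Ulk2.

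Liver was the tissue with the lowest mean for 19 of the 44 genes and Spleen for 14. Together they held the lowest value of 33 genes, which is 75%, against 58.9% of other genes of like level. Read at the main start alone (defined below, a reading added after the data were seen), Liver was lowest for 22 genes and Spleen for 11, again 33 together, and the lowest tissue changed for 7 genes. Muscle had the highest mean for 13 genes (29.5%, against 19.4% at like level) and Liver for 0 (against 8.82%). The median percentile over the 44 genes was 95.6 in Liver and 96.3 in Spleen, against 96.2 and 97 at like level, and from 97.1 in Kidney to 98.2 in Muscle in the other tissues. In Liver, Spleen and Kidney (97.1 against 97.3) the medians of the 44 genes lay below those of genes of like level, and in the other tissues above, as in Muscle (98.2 against 97.7) and White Adipose (98.1 against 97.6). These medians are descriptions, with no test. Liver and Spleen libraries also had the lowest background tags of the 16 (2.80 to 3.35), and the part of depth in this order was not tested.

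**Figure D2:**
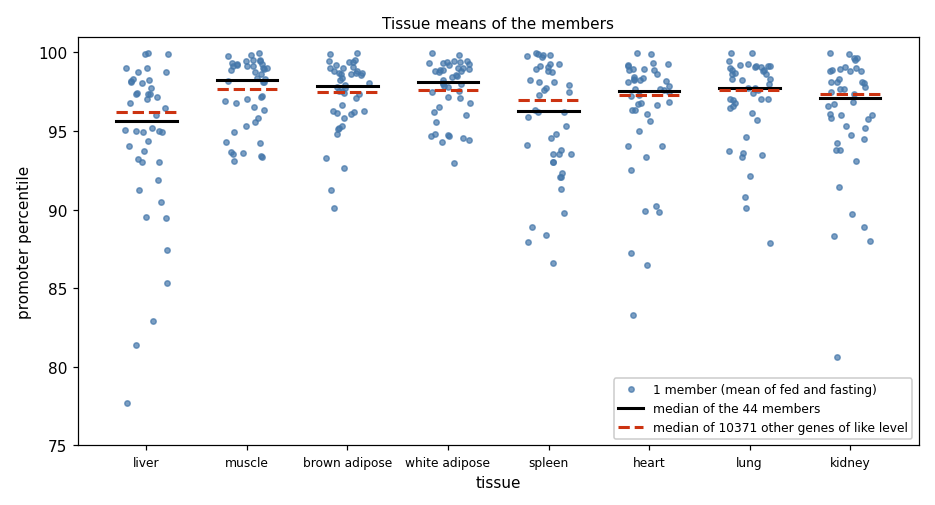
Promoter percentile of each of the 44 genes (points, 1 member of the list each, mean of the Fed and Fasting library) by tissue, with the median of the 44 genes (black line) and of the 10371 other genes of like level (dashed line), on an axis that does not start at 0. The lowest point is Lamp1 in Liver (77.7), and the black line is lowest in Liver (95.6) and highest in Muscle (98.2).

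Among the initiation genes, only Atg101 had a called tissue pattern, 1 of 5. Counts by role, here and below, are small, were not tested, and stand beside the 51.2% of all genes called. ATG101 stabilises ATG13 within the ULK complex. Its tissue means were 98.3 in Lung, 97.55 in White Adipose, 97.3 in Spleen, 96.8 in Kidney, 96.3 in Brown Adipose, 95.9 in Muscle, 95.6 in Heart and 89.4 in Liver. Liver stood below all other tissues, with 88.2 Fed and 90.7 Fasting (adjusted p = 0.0370, exact pairing permutation test). In Fed Liver the strongest Atg101 peak was not at the main start but at another start 2398 bp downstream. Ulk1 and Ulk2, the kinases themselves, averaged 98.3 and 97.2. Rb1cc1, which encodes the scaffold FIP200, ran from 98.4 to 99.6 over the 16 libraries and Atg13, a regulatory subunit, from 97.35 to 99.27, and neither passed the test.

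The PI3-kinase complex had 3 of 6 genes with a called pattern, Pik3r4, Atg14 and Uvrag. Pik3r4 (chr9:105642978-105687657, plus strand) encodes VPS15, the regulatory subunit that holds the kinase. Its tissue means were 95.3 in Spleen, 94.8 in White Adipose, 94.25 in Muscle, 93.1 in Liver, 92.65 in Brown Adipose, 90.8 in Lung, 88.0 in Kidney and 83.3 in Heart. Heart was lowest in both states, at 84.6 Fed and 82.0 Fasting, and Kidney next, at 89.0 and 87.0, so that the Heart values lay below those of every other tissue (adjusted p = 0.00797, exact pairing permutation test, range 12.04 points). In Spleen the strongest summit lay upstream of another start inside the gene, at −1963 and −1957 bp from it, and at the main start Spleen had 88.5 and 89.15, below White Adipose, which was then highest. The adjusted p of 0.00797 (exact pairing permutation test) is the smallest among the 44 genes, shared with Gabarapl1. Pik3c3, the catalytic subunit VPS34, had tissue means of 98.9 in Spleen, 98.8 in Muscle, 98.6 in White Adipose, 97.8 in Brown Adipose, 97 in Lung, 95.31 in Kidney, 94.99 in Heart and 90.5 in Liver. Its Liver value differed between the states, and the pattern was not called (adjusted p = 0.102, exact pairing permutation test).

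In the same complex, Atg14, which directs the kinase to autophagosome formation, was lowest in Spleen, at 94.4 Fed and 93.9 Fasting, and ran from 98.1 to 99.7 elsewhere (adjusted p = 0.0260, exact pairing permutation test). Uvrag, the subunit of a second kinase complex that acts in endosomal traffic, was lowest in Liver, at 92.95 and 97.2 (adjusted p = 0.0307, exact test). Becn1, the scaffold Beclin 1, averaged 92.6. Its summit lay near the main start in every library but those of Liver, where it lay 1047 and 1059 bp after another start inside the gene. At the main start Liver was the lowest tissue, at 82.1 and 85.25, and by the strongest peak Spleen was, at 87.4 and 89.45.

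Of the membrane supply genes, Wipi1, Wipi2 and Atg2a had a called pattern, 3 of 5. WIPI proteins bind phosphatidylinositol 3-phosphate and recruit the conjugation machinery. Wipi1 (chr11:109573331-109611967, minus strand) had the highest mean of the 44 genes, 99.94, with tissue means of 99.99 in Liver, Brown Adipose, White Adipose and Kidney, 99.94 in Lung, 99.93 in Heart, 99.92 in Spleen and 99.78 in Muscle. Its summit stayed 191 to 210 bp before the start in all libraries, with 204 to 1449 tags. Wipi2 had tissue means of 99.0 in Muscle, 97.2 in White Adipose, 97.03 in Lung, 96.2 in Brown Adipose, 96.2 in Spleen, 96.1 in Heart, 94.2 in Kidney and 91.3 in Liver. Muscle was highest and Liver lowest in both states, 99.1 and 98.9 against 92.0 and 90.5 (adjusted p = 0.0182, exact pairing permutation test).

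The lipid transfer proteins Atg2a and Atg2b were lowest in Liver and Spleen. Atg2a had 90.4 Fed and 95.6 Fasting in Liver and 92.8 and 94.3 in Spleen, against 96.1 to 98.8 in the other tissues (adjusted p = 0.0472, exact pairing permutation test). Atg2b had 93.5 and 92.9 in Liver and 90.9 and 93.8 in Spleen (adjusted p = 0.0552, exact test). Atg9a, the membrane-spanning scramblase, was at 99.2 to 99.65 in both Muscle, both Brown Adipose and both White Adipose libraries, and as low as 89.4 in Fasting Heart.

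The conjugation genes had a median of their mean percentiles of 98.3, and 3 of 10 had a called pattern (Atg4b, Atg4d and Atg12). Atg12, the ubiquitin-like protein joined to ATG5, had tissue means of 99.5 in Muscle, 96.7 in Heart, 96.2 in White Adipose, 95.7 in Lung, 94.8 in Brown Adipose, 94.6 in Spleen, 94.5 in Kidney and 87.4 in Liver. Liver was lowest, at 86.8 and 88.1, and Muscle highest, at 99.52 and 99.45 (adjusted p = 0.0202, exact pairing permutation test). At the main start Liver was also lowest, at 79.9 and 86.7, while Kidney had 89.6 and 85.7 and Heart 94.1 and 83.2. The proteases Atg4b and Atg4d, which trim Atg8 proteins, differed in Spleen in opposite directions. Atg4b had its lowest values there, 96.2 and 95.6 (adjusted p = 0.0124, exact pairing permutation test), and Atg4d its highest, 99.9 and 99.8 (adjusted p = 0.00990).

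Among the other conjugation genes, Atg10, the enzyme that passes ATG12 to ATG5, had the highest mean, 99.45. Its tissue means were 99.98 in Spleen, 99.92 in Liver, 99.65 in Kidney, 99.48 in Brown Adipose, 99.31 in Heart, 99.15 in Lung, 99.11 in Muscle and 99.00 in White Adipose. The groups overlapped and no pattern was called (adjusted p = 0.251, exact pairing permutation test). Atg7, the E1-like enzyme that activates both ATG12 and Atg8 proteins, was the lowest of the group with a mean of 92.8, and its values ran from 87.1 in Fasting Liver to 98.2 in Fasting Brown Adipose. These extremes came from other starts of the gene, and at the main start Liver was lowest, at 64.3 and 68.9, and Brown Adipose had 93.9 and 91.75. Atg3, the E2-like enzyme, Atg4a, Atg4c, Atg5 and Atg16l1 had means of 98.6, 97.1, 98.2, 98.8 and 97.6, with adjusted p from 0.0504 to 0.138.

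The Atg8 family was the only role in which every gene had a called pattern, 5 of 5, where 51.2% of all genes were called. Of these genes only Gabarapl1 kept its call in every alternative. Members of the family differed in which tissue was low. Map1lc3b, which encodes LC3B, had tissue means of 95.35 in Muscle, 94.5 in White Adipose, 93.7 in Lung, 93.0 in Spleen, 91.2 in Brown Adipose, 88.9 in Kidney, 87.2 in Heart and 81.4 in Liver (adjusted p = 0.0332, exact pairing permutation test). Gabarapl1 had tissue means of 95.8 in Brown Adipose, 94.4 in White Adipose, 93.6 in Muscle, 93.5 in Spleen, 90.2 in Heart, 88.3 in Kidney, 87.9 in Lung and 85.3 in Liver (adjusted p = 0.00797, exact pairing permutation test). Both of these genes were lowest in Liver by the strongest peak. That peak of Gabarapl1 moved between libraries, and at its main start Kidney was lowest, at 83.5 and 83.7, next to Liver, at 82.8 and 85.2, while Heart had 91.5 and 78.5.

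The other Atg8 genes were lowest in Spleen by the strongest peak. Gabarap had tissue means of 98.8 in Kidney, 98.2 in Liver, 98.0 in White Adipose, 97.7 in Heart, 97.6 in Brown Adipose, 97.05 in Lung, 96.4 in Muscle and 89.8 in Spleen (adjusted p = 0.00990, exact pairing permutation test). Gabarapl2, which encodes GATE-16, had 92.8 and 93.3 in Spleen and 98.0 to 99.96 in all others (adjusted p = 0.0349, exact test). Map1lc3a had 92.0 and 92.2 in Spleen and 93.5 and 93.8 in Muscle, with 97.6 and 98.9 in Heart (adjusted p = 0.0227, exact test). At its main start Map1lc3a had 90.7 and 93.3 in Muscle, about as low as in Spleen. With ranks by fold enrichment, Map1lc3b and Gabarap missed the threshold (adjusted p = 0.262 and 0.144, exact pairing permutation test). How the genes of the family differ from one another was not tested.

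Of the cargo receptors only Bnip3l, a receptor on mitochondria, had a called pattern, 1 of 5. It was lowest in Liver, at 96.2 and 96.8, and highest in White Adipose, at 99.4 and 99.5 (adjusted p = 0.0137, exact pairing permutation test). Sqstm1, which encodes p62, was lowest in Heart and Liver, with 92.8 and 95.3 in Heart, with its strongest summit a median of 531 bp after the start, and at the main start it was lowest in Spleen, at 88.8 and 92.9. Optn, the receptor optineurin, had 90.9 and 91.7 in Spleen, its lowest by the strongest peak, but in Liver that peak lay 2373 and 2366 bp after a start, and at the main start Liver was lowest, at 82.45 and 80.9. Nbr1, a receptor related to p62, had 94.3 and 91.9 in Kidney, its lowest by the strongest peak, and at its main start Liver was lowest, at 86.3 and 91.15. Bnip3, the hypoxia-responsive relative of Bnip3l, ran from 96.6 to 99.45.

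Of the MiT-TFE factors, Tfeb had a called pattern, 1 of 3, with its lowest values in Muscle, 97.25 and 95.75, and 97.9 to 99.6 elsewhere (adjusted p = 0.0256, exact pairing permutation test). Mitf had tissue means of 99.96 in Lung, 99.95 in Muscle, 99.94 in Heart, 99.93 in Kidney, 99.90 in Brown Adipose, 99.88 in Liver, 99.87 in White Adipose and 99.86 in Spleen, a range of 0.101 points, and no pattern was called (adjusted p = 0.353, exact test). Its strongest peak lay at the most upstream start of the gene. Tfe3 ran from 93.4 in Fed Spleen and Fed Kidney to 97.5 in Fed Heart.

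The lysosomal proteins had 4 of 5 genes with a called pattern, and they included the lowest and most variable promoters of the list. Lamp1 (chr8:13159161-13175338, plus strand) had tissue means of 94.9 in Muscle, 94.3 in White Adipose, 92.2 in Lung, 90.1 in Brown Adipose, 89.9 in Heart, 89.7 in Kidney, 86.6 in Spleen and 77.7 in Liver. Liver was below all other libraries in both states, at 76.5 and 78.8 (range 17.2 points, adjusted p = 0.0210, exact pairing permutation test). In Liver the strongest Lamp1 peak was not at the E-boxes printed above but 2394 and 2393 bp downstream, with 33 tags Fed and 58 tags Fasting, and the peak at the start itself had percentiles of 72.5 and 71.9.

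Lamp2, the partner glycoprotein that also serves chaperone-mediated autophagy, had the lowest mean of the 44 genes, 88.7. Its tissue means were 95.2 in Brown Adipose, 93.3 in Muscle, 93.0 in White Adipose, 90.1 in Lung, 88.0 in Spleen, 86.5 in Heart, 82.9 in Liver and 80.6 in Kidney. Kidney and Liver were low, but the states differed by more than 7 points in Liver, Heart and Kidney, and the pattern was not called (adjusted p = 0.0979, exact pairing permutation test). The proteases Ctsb, Ctsd and Ctsl encode cathepsins. Ctsb was lowest in Liver, at 92.1 and 97.75 (adjusted p = 0.0326, exact test), Ctsd in Spleen, at 93.4 and 96.2 (adjusted p = 0.0140), and Ctsl in Liver, at 94.94 and 95.04 (adjusted p = 0.0186).

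The response to food deprivation was read as the Fasting minus Fed difference in percentile within each tissue, and was tested per gene with an exact sign-flip permutation test over the 8 tissues (two-sided, 256 arrangements, smallest possible p = 0.0078). Of the 44 genes, 1 was higher in Fasting at an unadjusted p under 0.05 and 0 were lower, against 1.83% of the 18883 genes tested that were higher and 3.65% that were lower. After Benjamini-Hochberg adjustment 0 of 18883 genes passed, the smallest adjusted p being 0.786, while 1036 genes had an unadjusted p under 0.05. A count of 1 in 44 is near the background of higher calls. With a window of 1000 bp Atg7 was also called, lower in Fasting, and with 1 tissue left out 1 further gene was called without Brown Adipose (Map1lc3b, lower), White Adipose (Atg5, higher), Spleen (Atg4b, higher) or Heart (Atg4a, higher). For each of these genes the tissue left out was the only one going the other way. The remaining signs thus fixed p at its floor of 0.0156 (exact sign-flip permutation test), and these calls add no evidence. With 8 differences per gene the test could not separate small shifts in a few tissues.

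The gene that passed unadjusted was Ctsd (chr7:142375911-142388038, minus strand), which encodes the aspartic protease cathepsin D. Its percentiles, Fed then Fasting, were 93.4 and 96.2 in Spleen, 96.6 and 96.9 in Heart, 96.9 and 97.8 in Liver, 98.2 and 99.2 in Brown Adipose, 98.4 and 98.9 in Muscle, 98.8 and 99.5 in Lung, 98.9 and 99.1 in Kidney, and 99.3 and 99.4 in White Adipose. Fasting was the higher of the pair in every tissue, by 0.83 ± 0.86 points (mean and SD over 8 tissues), with the widest gap in Spleen, and the ranges of the Fed and Fasting libraries overlapped (p = 0.0078, exact sign-flip permutation test). On the fold enrichment scale the same promoter did not move one way. After subtracting the median of each library, its log2 fold enrichment was higher in Fasting in 4 of 8 tissues, by a mean of 0.09 (p = 0.234, exact sign-flip permutation test). With ranks by fold enrichment the mean rise was 1.23 points (p = 0.391), and by p-value ranks without Spleen it was 0.55 points (p = 0.0156, exact sign-flip permutation test).

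The mean of Map1lc3b fell by 2.14 points (SD 2.84), the most of the 44 genes, lower in Fasting in 7 of 8 tissues (p = 0.0703, exact sign-flip permutation test). Its values were 92.5 Fed and 85.25 Fasting in Kidney and 94.98 and 91.03 in Spleen, and in Brown Adipose the order was turned, at 89.98 and 92.5. In Heart the values were nearly equal, at 87.21 and 87.2, and Heart counts among the 7 lower tissues. Without Brown Adipose, the only tissue where it rose, Map1lc3b fell by 2.81 points (p = 0.0156, the floor, exact sign-flip permutation test). On the centred log2 fold scale it fell by a mean of 0.27 (p = 0.0391, exact sign-flip permutation test), with rises in Brown Adipose (0.15) and Heart (0.11). Over the 44 genes the median of the mean differences was 0.03 points, against −0.08 over all genes tested and −0.007 at like level, and 27 genes (61.4%, against 48.8% at like level) had a mean above 0. All of these medians lay close to 0. The mean size of the difference between states, regardless of sign, had a median of 0.99 points over the 44 genes and 1.01 at like level.

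**Figure D3:**
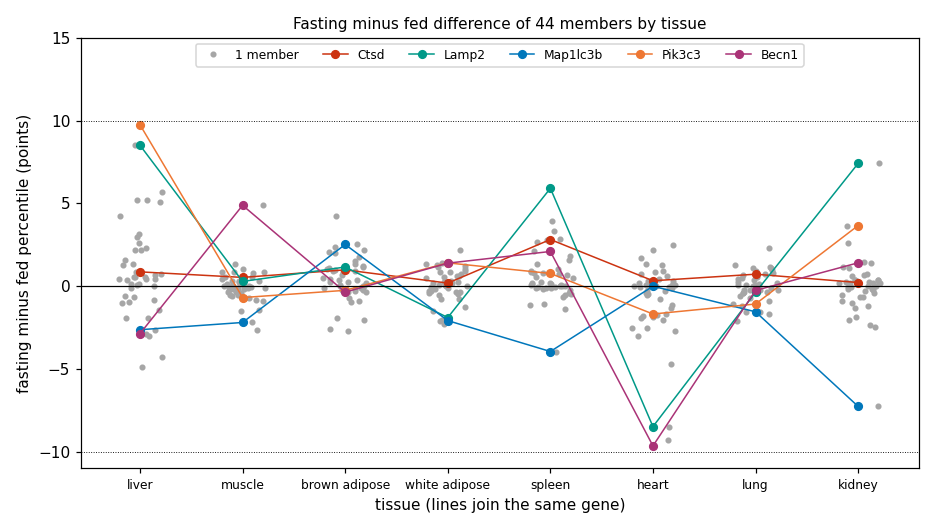
Fasting minus Fed difference in percentile of the strongest promoter peak (points) of the 44 genes by tissue, as grey points, with Ctsd, Lamp2, Map1lc3b, Pik3c3 and Becn1 in colour and joined by lines that only mark the same gene. All 352 differences lie inside the dotted lines at 10 points, between −9.65 (Becn1, Heart) and 9.75 (Pik3c3, Liver), and Ctsd lies above 0 in all 8 tissues.

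By the strongest peak, a change of at least 10 points was seen in 0 of the 352 pairs of gene and tissue. The share was 16.6% of all gene and tissue pairs and 0.777% of those at like level. A peak at another start can hide a fall at the main one. At the main start alone, Gabarapl1 in Heart went from 91.5 Fed to 78.5 Fasting and Atg12 in Heart from 94.1 to 83.2, both by more than 10 points. The largest rise was that of Pik3c3 in Liver, from 85.6 to 95.35. It rests on 27 tags Fed (95% Poisson interval 17.8 to 39.3) and 74 tags Fasting (58.1 to 92.9) at nearly equal background, 2.80 and 2.82 tags. These exact intervals cover counting error only. The largest fall by the strongest peak was that of Becn1 in Heart, from 94.7 to 85.0. It rests on 56 tags Fed and 37 Fasting, at a background of 4.92 and 5.84 tags, and the 95% Poisson intervals of these counts overlap. In the same gene Muscle moved the other way, from 91.0 to 95.85, the largest rise in that tissue.

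The other extremes of each tissue were smaller. In Liver the lowest difference was that of Atg7, −4.89 points from 92.0 to 87.1, and in Muscle that of Ulk1, −2.62. The Atg7 value in Liver compares peaks at different places, and at the main start it was 64.3 Fed and 68.9 Fasting. In Brown Adipose Atg7 had the highest difference, 4.23, at a peak 2082 bp after another start, while at the main start it was 93.9 Fed and 91.75 Fasting, so the direction for Atg7 turned with the start read in both tissues. The lowest difference in Brown Adipose was that of Ulk2, −2.68.

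In White Adipose Ambra1, an activator of the PI3-kinase complex, differed by 2.19 and Lamp1 by −2.28, and in Lung Lamp1 differed by 2.30 and Atg7 by −2.10. Spleen had its highest difference in Lamp2, 5.91 from 85.0 to 90.9, and its lowest in Map1lc3b, −3.95. In Heart the highest was that of Sqstm1, 2.48. Kidney had 7.41 in Lamp2, from 76.9 to 84.3, and −7.26 in Map1lc3b. Each of these is 1 library against 1, with no replicate check.

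Fold enrichment, taken as the highest among the promoter peaks of a gene and so not always at the peak ranked first by p-value, was also compared after centring each library on its median. Of the 352 pairs, 12 moved by at least 0.5 on the log2 scale (3.41%, against 3.69% at like level), 4 up and 8 down, and 0 moved by 1 or more. The rises were Pik3c3 in Liver (0.97), Becn1 in Muscle (0.62), Ulk1 in Brown Adipose (0.56) and Nbr1 in Brown Adipose (0.51). The falls were those of Atg9a in Heart (−0.91), Ulk1 (−0.70) and Gabarapl1 (−0.67) in Muscle, Becn1 in Heart (−0.59), and Sqstm1 (−0.58), Optn (−0.53), Wipi1 (−0.53) and Map1lc3b (−0.50) in Liver. Changes of this size were thus as common as among other open promoters.

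Genes with and without an E-box were also set side by side. The 8 genes with an E-box in the RefSeq promoter had a median difference of 0.19 points and were higher in Fasting on average in 6 of 8, and the 28 without had a median of 0.01 and were higher in 16. At like level, 50.1% of 1004 genes with an E-box and 48.8% of 7232 without were higher. No test was made of these shares.

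Many of the genes have several annotated starts, and accessibility was therefore also read at each start, a comparison chosen after the data were seen. Starts up to 1000 bp apart were merged into a site, and a site was called open where a peak with q under 0.01 had its summit within 500 bp. The 44 genes have 140 such sites. At 1 main site per gene, the one of highest mean percentile, all 44 were open in all 16 libraries. The lowest of those values was 64.3, for Atg7 in Fed Liver. Secondary sites numbered 96, in 34 genes.

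Most secondary sites had no open peak in the deposited lists, or had one in few tissues only. In the 8 libraries where every deposited row passed, weaker peaks under the q limit may be missing. The weakest row had a −log10 q of 5.26 in Fed Brown Adipose and 1.72 in Fed Liver. In 37 of the 96 no library had an open peak, and 24 more were open only in 1 state of a tissue. The remaining 35, in 21 genes, were open in both states of at least 1 tissue (36.5%, against 32.4% of all 25915 secondary sites). Of these 35 sites 16 were open in both states of 1 tissue and 1 in all 8. That site lies 21408 bp downstream of the main Ulk1 start, with a tissue mean of 86.7 in Spleen, the highest, and 44.2 in Liver, the lowest. Liver had the most secondary sites open in both states, 17 of 96 (17.7%, against 10.7% of all secondary sites), and Heart the fewest, 5 (5.21%, against 10.3%). Kidney had 16 (16.7%, against 15.6%). These counts were not tested, and the lists reach down to different q-values, as given above.

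**Figure D4:**
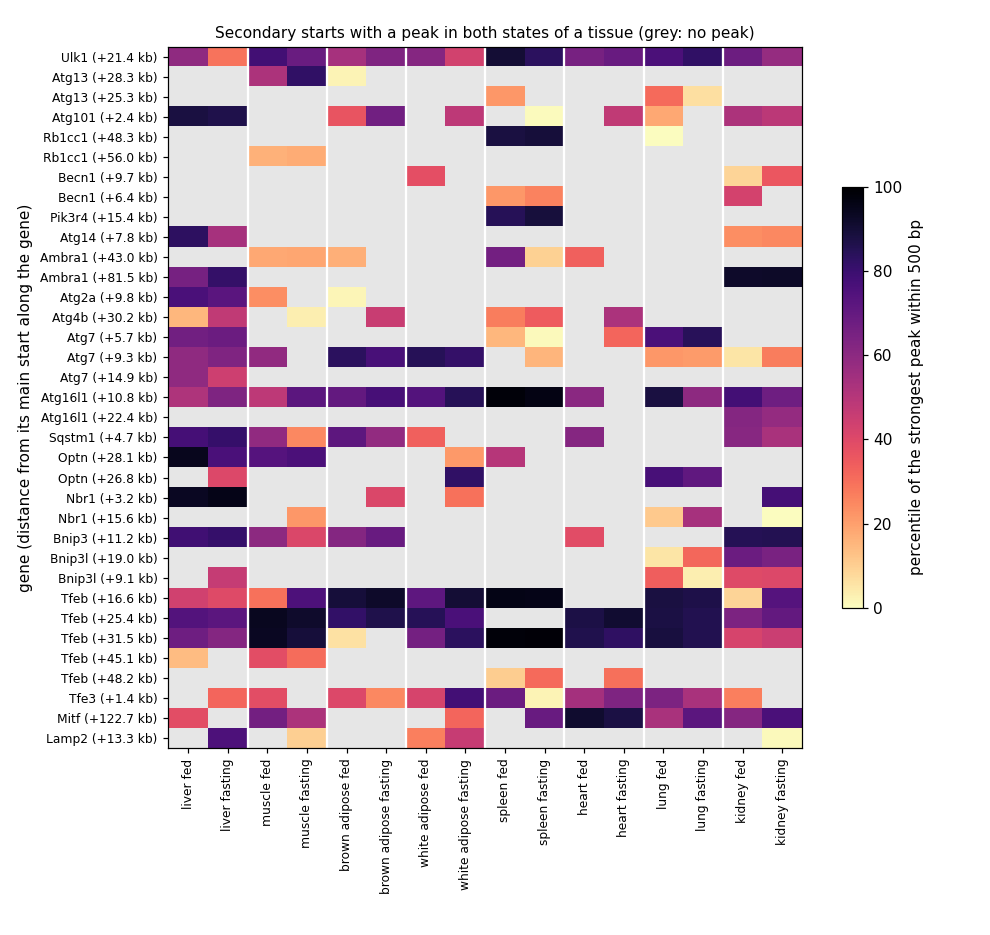
Percentile of the strongest open peak within 500 bp (colour, grey where there was none) at the 35 secondary start sites (rows, named by gene and distance from the main start) open in both states of at least 1 tissue, in the 16 libraries (columns). The row of Ulk1 is filled in all 16 libraries, and most other rows are grey in several tissues.

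A tissue pattern was called by the same exact pairing test at 4 of the 41 secondary sites with an open peak in at least 2 libraries, against 15% of 10122 such sites of all genes, and the 4 lie in Tfeb and Bnip3. The Tfeb gene (chr17:47737030-47792419, plus strand) encodes the factor that drives lysosomal and autophagy genes. Its main start was open at 95.75 or above in every library, but starts of shorter coding transcripts inside the gene were not open in all tissues. Downstream by 16562 bp, at 47754326, Spleen had 95.8 Fed and 95.6 Fasting, Brown Adipose 89.2 and 91.9, Lung 88.0 and 87.1, and both Heart libraries had no peak (adjusted p = 0.0355, exact pairing permutation test). At 25406 bp, position 47763170, Muscle had 93.8 and 91.7, Heart 87.2 and 90.8, and Spleen none (adjusted p = 0.0258, exact pairing permutation test). Further on, at 31474 bp (position 47769238), Spleen had 98.3 and 98.7, Muscle 93.4 and 89.3, and Brown Adipose 5.99 and none (adjusted p = 0.0214, exact pairing permutation test). Spleen was thus highest at the start sites 16562 and 31474 bp downstream and without a peak at the one between them, where Muscle was highest. Of the 4 sites, 3 kept the call without White Adipose or without Heart, 1 without Liver and 0 without each of the other tissues, where 0 sites of all genes were called either. With a site window of 1000 bp, 11 secondary sites of the 44 genes were called, against 14.9% of such sites of all genes.

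The 100 bases around the summit at these last Tfeb sites are shown because both hold the AP-1 letters TGANTCA (in capitals), which were searched on both strands after the data were seen. They surround the summit of the library with the highest value, 432 and 442 bp before the annotated starts, on GRCm38, plus strand. Over libraries the strongest summits ran from 47762680 to 47763171 at the first site and from 47768790 to 47769191 at the second. The tissue order at these sites thus compares peaks that were not all at the same place.
Tfeb, 25406 bp downstream, chr17:47762688-47762787: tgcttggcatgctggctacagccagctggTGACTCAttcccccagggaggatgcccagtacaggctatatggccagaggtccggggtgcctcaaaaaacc
Tfeb, 31474 bp downstream, chr17:47768746-47768845: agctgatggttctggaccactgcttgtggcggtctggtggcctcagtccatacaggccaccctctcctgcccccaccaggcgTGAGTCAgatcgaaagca
Of the 35 open secondary sites of the 44 genes, 3 held these letters in the 100 bases around the summit (8.57%), against 3.45% of 8402 open secondary sites of all genes. The 3 include both Tfeb sites printed above, which were picked for holding the letters, so these shares are no evidence of enrichment.

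The Bnip3 site lies 11224 bp downstream of the main start, at chr7:138898276 on the minus strand, where a non-coding transcript of the gene starts. Kidney had 85.1 and 85.2, Liver 78.6 and 80.9, Brown Adipose 61.9 and 69.1 and Muscle 60.1 and 40.8. Heart had 38.7 Fed and no open peak in Fasting, and none was open in White Adipose, Spleen or Lung (adjusted p = 0.0214, exact pairing permutation test). The main Bnip3 start was at 96.6 or above in all of these libraries.

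**Figure D5:**
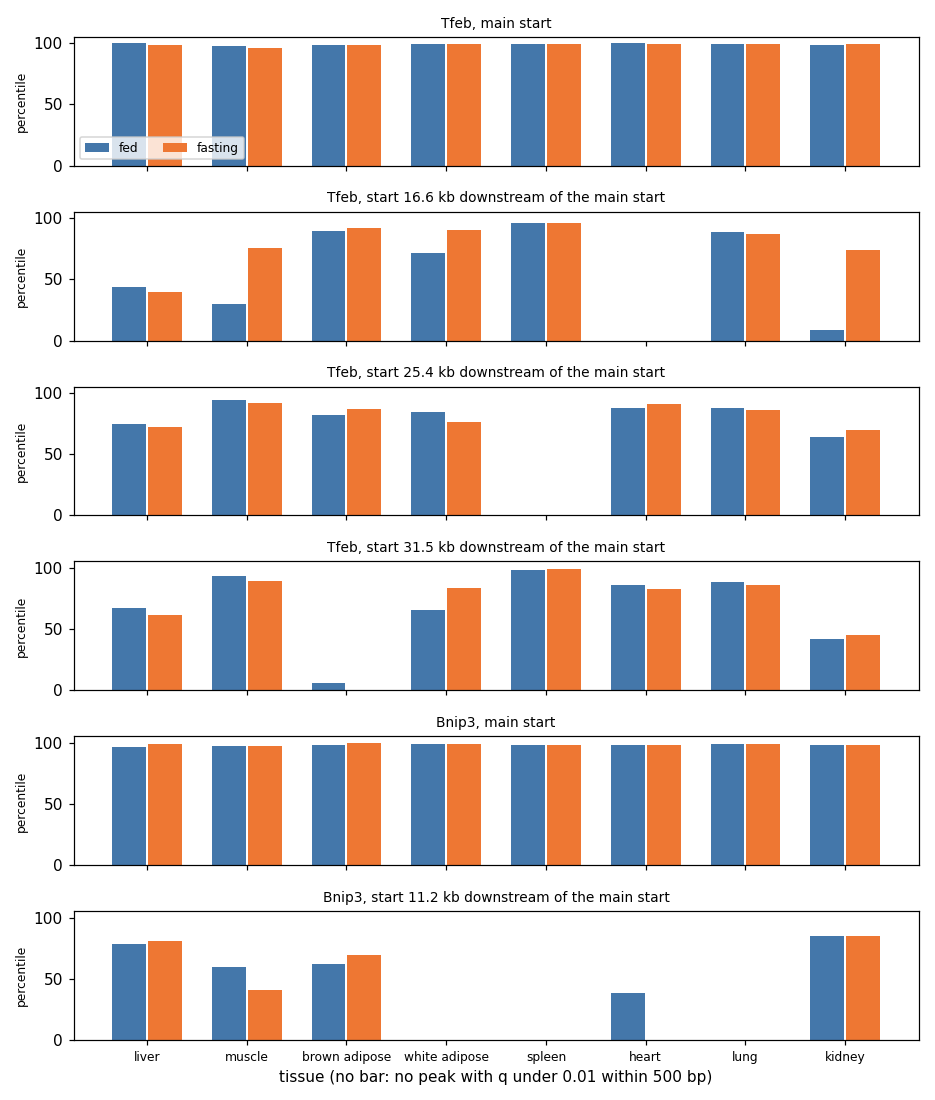
Percentile of the strongest open peak within 500 bp (bars from 0, Fed blue and Fasting orange, 1 library each) at the main start sites of Tfeb and Bnip3 and at their secondary sites with a called pattern, by tissue, with no bar where there was no open peak. The main sites are open in all tissues, Spleen lacks a bar at the Tfeb site 25406 bp downstream and is highest at the Tfeb sites before and after it, and Kidney is highest at the Bnip3 secondary site.

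Other secondary sites had no call and are described by their values, and at those open in 1 tissue ties at 0 keep the pairing test from calling. In Spleen, a coding start of Rb1cc1 48255 bp downstream had 88.2 and 89.4, and a coding start of Pik3r4 15374 bp downstream had 84.7 and 88.9. Both were open in Spleen in both states and in no other tissue in both. A start of Atg16l1, the membrane-targeting partner of ATG12-ATG5, 10825 bp downstream was open in both states of 7 tissues, with 98.3 and 96.3 in Spleen and lower values elsewhere (adjusted p = 0.222, exact pairing permutation test).

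Liver and Kidney shared several such sites. A start of Ambra1 81486 bp downstream had 92.0 and 92.5 in Kidney and 65.6 and 81.5 in Liver, and one of Atg14 7780 bp downstream had 82.9 and 53.8 in Liver and 23.6 and 24.8 in Kidney. No other tissue had an open peak at either. In Liver, coding starts of Nbr1 3200 bp downstream had 93.4 and 95.6, a start of Optn 28142 bp downstream had 94.2 and 76.5, and one of Atg2a 9820 bp downstream had 76.5 and 72.6. The Optn site was also open in Muscle, at 73.6 and 76.1.

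In Heart, a coding start of Mitf 122744 bp downstream of the main one had 91.1 and 87.8, against 61.6 and 76.2 in Kidney, 66.1 and 52.0 in Muscle and 52.9 and 72.0 in Lung (adjusted p = 0.189, exact pairing permutation test). An Atg13 start 28318 bp downstream was open in both states in Muscle only, at 52.3 and 82.1. White and Brown Adipose were highest at a coding start of Atg7 9316 bp downstream, with 84.5 and 81.3 in White Adipose and 83.6 and 76.9 in Brown Adipose (adjusted p = 0.0624, exact pairing permutation test). The Fed and Fasting values of a tissue were far apart at several of these sites, as for Atg14, Ambra1 and Optn in Liver, Atg13 and Mitf in Muscle and Mitf in Lung.

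The pathway was completed with 64 genes outside the list, namely 32 further lysosomal genes, 12 of membrane fusion, 14 regulators and 6 other receptors. All 64 had a promoter peak in at least 2 libraries and 59 were open in all 16, against the 59.8% of all genes given above. A tissue pattern was called for 38 (59.4%, against 51.2% of all genes), 22 of 32 lysosomal genes among them. The widest ranges belonged to lysosomal genes of particular cells. Ctss, the cathepsin of antigen-presenting cells, had 89.2 and 90.7 in Spleen and no peak in either Brown Adipose library (adjusted p = 0.0349, exact pairing permutation test). Its summits lay at a median of −2859 bp from a start, near the edge of the window. Macrophage markers were likewise highest in Spleen, as given above, and their part in the Spleen value of Ctss was not tested. Atp6v0d2, a subunit of the proton pump that acidifies lysosomes, had 85.0 and 75.9 in Liver and no peak in Muscle or Heart. The Atp6v0d2 summits lay from −2646 to 2912 bp of a start. Ctsk, a cathepsin known from bone, had 77.5 and 79.4 in Muscle and 4.37 and 9.65 in Spleen (adjusted p = 0.00797, exact pairing permutation test).

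After Fasting 0 of these 64 genes were higher and 2 were lower at an unadjusted p under 0.05, against the 1.83% and 3.65% of all genes, so that 2 in 64 is no more than the background. Neither passed after adjustment. Vps33a, a subunit of the HOPS complex that tethers autophagosomes to lysosomes, fell in 7 of 8 tissues, by 1.23 points (SD 1.495, p = 0.0156, exact sign-flip permutation test). Psap, the precursor of the saposins, fell in 6 of 8, by 0.53 (SD 0.64, p = 0.0469, exact sign-flip permutation test). Changes of at least 10 points were seen in 17 of their 512 pairs of gene and tissue, 14 of them in the lysosomal genes. The share was 16.6% of all gene and tissue pairs and 0.777% of those at like level, a level that not all of the 64 genes reach. The lysosomal genes include weak promoters, with mean percentiles of 36.0 for Ctss, 36.9 for Atp6v0d2 and 47.6 for Ctsk.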

How the data were processed

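The authors aligned reads to GRCm38 with Bowtie2, removed duplicates and called peaks with MACS2, and kept lists of near-equal length. The deposited fold enrichment is a ratio, with 1 added to both the summit tags and the tags expected there. The deposited −log10 p and −log10 q come from the authors' test within a library and are not scaled between libraries, so they were used as ranks.

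Percentiles used every deposited row. Starts were those of GENCODE vM21. Tags were solved from fold and p, and all peaks of the genes gave a whole number within 0.01. Tests were exact permutation tests as described, with shifts of 10 points counted, in Python 3.11.15, numpy 2.4.6, scipy 1.17.1 and pandas 2.3.3, tested on simulated data. Genes given values in every tissue are the 10 with the largest range, the 3 highest and 3 lowest by mean, and those with sign-flip p under 0.05, with the largest rise and fall per tissue. The genes and lists were chosen with earlier results of these data known. The start sites, the AP-1 letters and the log2 limit of 0.5 were chosen after the data were seen. Alternatives were a window of 1000 bp, ranks by fold, a q limit of 1e-06, equal depth, a 20-point limit, 1 start per gene, protein-coding starts, 1 row per region, adjustment over genes listed in all 16 libraries, centred log2 fold, and leaving out each tissue. Signal tracks were not used here.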

Additional observations from a re-analysis of the deposited data

How the results depend on the processing

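All 44 promoters were open in every library under each of the 6 alternatives tried for openness, which included q under 1e-06 and equal depth. The number of genes with a tissue pattern ran from 16 (ranks by fold enrichment, 39.4% of all genes) to 25 (1 start per gene), and from 11 to 20 with 1 tissue left out. Of the 21 genes called, 3 (Pik3r4, Gabarapl1 and Bnip3l) passed in every alternative, and 11 other genes passed in at least 1. The cause of these differences was not tested, except that leaving out a tissue leaves fewer pairings.

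The number of genes with a difference in Fasting was 2 with a window of 1000 bp, 0 with ranks by fold enrichment, and 1 to 2 with 1 tissue left out. The median Fasting minus Fed difference was 0.293 points with ranks by fold enrichment, where it was 0.209 over all genes, and 0.0177 to 0.0866 with 1 tissue left out. Changes of at least 10 points numbered 1 with a window of 1000 bp, 11 with ranks by fold enrichment, 1 with 1 start per gene and 0 to 0 with 1 tissue left out, and 12 pairs passed the limit of 0.5 on the log2 scale. Secondary start sites with a tissue pattern numbered 11 with a site window of 1000 bp (14.9% of all such sites), and 0 to 3 with 1 tissue left out. E-boxes were found for 6 genes at the summits and for 8 in the promoter windows.

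Depth limits single values, since the promoter peak with the fewest tags among the 44 genes, of Lamp2, rests on 23.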
